A study of Rattus norvegicus with 23 samples.

Results

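Left ventricles of spontaneously hypertensive rats (SHR), which are inbred and inherit high blood pressure, were compared between 20 and 12 months of age. The comparison used 8 of the 23 arrays of the series, 4 at each age, taken by the strain and age in their titles, and all 7280 probe sets that were not controls and passed a filter on dim values. The remaining arrays were 4 from SHR at 16 months and 11 from Wistar-Kyoto rats (WKY) of 12, 16 and 20 months, a related strain without hypertension. The labels give total RNA of the left ventricle and list heart failure among their keywords, and they state no treatment, no sex and no heart function for any group. Whether the 4 arrays of a group stand for 4 animals is not said in the labels, and p-values therefore measure only the spread between samples, part of which may be technical.

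A hypertensive ventricle thickens its muscle cells and lays down collagen between them, and in late disease the wall can fail. Fibroblasts secrete fibrillar collagens, which are trimmed, hydroxylated and crosslinked by dedicated enzymes and held by adhesive glycoproteins and proteoglycans, while proteases and their inhibitors set how fast the matrix turns over. The heart muscle cell draws most of its energy from fatty acids, which mitochondria break down to feed electrons through complex I and the later complexes of the respiratory chain to ATP synthase. The comparison asks which of these functions change in the hypertensive strain over the longest age span studied.

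Each value is a probe set's intensity on the linear scale of the deposited table, and each change is the difference of mean log2(intensity + 32) between 20 and 12 months with its standard error (SE). A probe set was called changed at a limma adjusted p below 0.05, and a gene was judged by its brightest probe set. Arrays of both ages shared 1 chip lot, 1 hybridization cocktail and 1 fluidics station. The 12-month arrays were hybridized on 2 days (replicates 1 and 2 on the first, 3 and 4 on the second) and all 20-month arrays on a later day, so age and hybridization day cannot be told apart. The first principal component of the 8 arrays held 34.5% of the variance and separated the ages. Beta-actin's 3' to 5' signal ratio, a measure of RNA integrity, was 1.21 to 1.44 at 12 months and 1.03 to 1.37 at 20 months. The ratio of GAPDH was 1.13 to 1.34 and 1.15 to 1.19, and that of hexokinase was higher, 2.37 to 3.29 and 2.3 to 2.8. The summed intensity of 12 ventricular cardiomyocyte markers was 33406 to 38104 at 12 months and 24441 to 36902 at 20 months, which bears out the labelled tissue.

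Between 12 and 20 months, 337 of the 7280 probe sets changed (4.63%), 191 of them higher (2.62%) and 146 lower (2.01%). The risers were dimmer than the fallers. The median intensity at 12 months was 35.0 among the risers, 270.0 among the fallers and 16.8 among all tested probe sets. Judged by the brightest probe set, 206 of 4172 genes changed (4.94%), 115 higher (2.76%) and 91 lower (2.18%), with a median log2 change of 0.02 over all genes. The 4 arrays of 20 months did not overlap with the 4 of 12 months for 10.4% of genes, and 4.36% were called and did not overlap. The shares of 2.76% and 2.18% are the background for the counts of list members below. Among the 678 genes with a mean intensity of at least 100 at 12 months, 34 rose (5.01%) and 73 fell (10.8%), and their median log2 change was -0.06. For lists made mostly of such bright genes, these 2 shares are the nearer background. When the arrays were centred on their medians instead, 323 probe sets changed and 45.2% of them were higher, against 56.7% as deposited. With the 12-month arrays of the first day alone 73 probe sets changed, and with those of the second day alone 150 did. Leaving out 1 array at a time gave 160 to 350 calls, with 160 without replicate 3 of 20 months and 199 to 212 without replicate 2, 3 or 4 of 12 months.

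**Figure D1:**
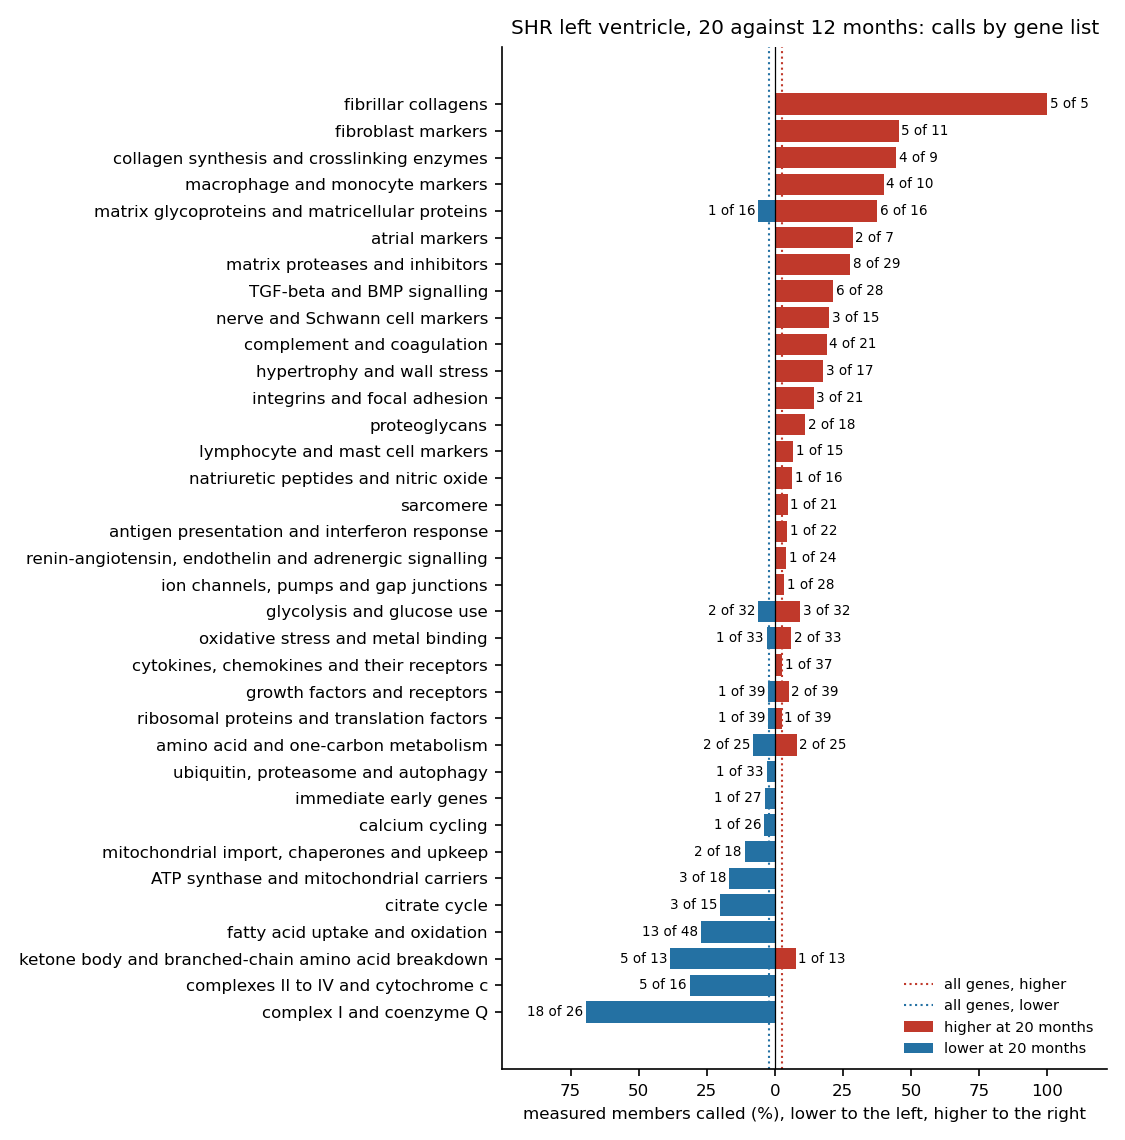
Share of the measured members of each gene list that rose (red, to the right) or fell (blue, to the left) between 12 and 20 months in SHR, with the counts beside the bars and the shares over all 4172 genes as dotted lines. All 5 fibrillar collagens rose, and 18 of 26 genes of complex I and coenzyme Q fell.

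Several probe sets on the array measure the same gene, which gives an internal check. Of 1272 genes with several tested probe sets, 123 had at least 1 call, and 45 had 2 or more. Only 29 of the 123 had every tested probe set called. Calls went in opposite directions in 0 genes. For Fn1, Ltbp2, Lox, Nppa and Ndufa6 only the brightest probe set was called. All 4 probe sets of the collagen gene Col1a1 rose, as did both of Col3a1, Loxl1, Bgn, Timp1 and Fstl1, and both probe sets of Rpl3l, Bckdha and Ndufb5 fell.

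The proximal promoters of 4 genes are shown, those of 2 matrix genes that rose and of 2 complex I genes that fell. Both complex I promoters were picked after the motif search, from the 3 that hold the motif of nuclear respiratory factor 1 among the 16 complex I promoters at hand. They come from RefSeq (assembly GRCr8) and run from 250 bases before to 50 bases after the annotated start, read 5′ to 3′ on the gene's strand. Capitals mark matches on either strand to 5 motifs, the TATA box (TATAAA), the CCAAT box (CCAAT), the GC box (GGGCGG), the core motif of that factor (NRF1, GCGCATG) and that of the estrogen-related receptors (AAGGTCA). Col1a2 encodes the second chain of type I collagen (chr4:33518307-33518606, + strand), Thbs4 a matricellular thrombospondin (chr2:25760296-25760595, - strand), and Ndufa6 (chr7:115750268-115750567, - strand) and Ndufb8 (chr1:253362887-253363186, - strand) encode accessory subunits of complex I.
Col1a2: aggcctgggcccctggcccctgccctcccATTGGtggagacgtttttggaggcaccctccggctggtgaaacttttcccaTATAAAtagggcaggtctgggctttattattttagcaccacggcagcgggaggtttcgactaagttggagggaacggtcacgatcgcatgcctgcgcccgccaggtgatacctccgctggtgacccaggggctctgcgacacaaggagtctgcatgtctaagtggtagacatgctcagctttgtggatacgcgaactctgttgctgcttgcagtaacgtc
Thbs4: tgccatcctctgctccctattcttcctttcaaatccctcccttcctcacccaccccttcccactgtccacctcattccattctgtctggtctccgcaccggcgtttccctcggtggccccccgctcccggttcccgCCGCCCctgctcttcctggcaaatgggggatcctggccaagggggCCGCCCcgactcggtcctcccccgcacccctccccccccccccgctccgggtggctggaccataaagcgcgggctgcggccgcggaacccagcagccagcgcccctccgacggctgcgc
Ndufa6: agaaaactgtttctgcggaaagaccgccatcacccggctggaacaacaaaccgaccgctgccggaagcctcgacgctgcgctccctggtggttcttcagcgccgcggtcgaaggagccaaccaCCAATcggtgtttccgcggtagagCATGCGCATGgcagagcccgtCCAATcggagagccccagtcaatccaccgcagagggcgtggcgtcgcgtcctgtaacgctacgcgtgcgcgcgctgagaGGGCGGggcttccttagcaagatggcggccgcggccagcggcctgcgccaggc
Ndufb8: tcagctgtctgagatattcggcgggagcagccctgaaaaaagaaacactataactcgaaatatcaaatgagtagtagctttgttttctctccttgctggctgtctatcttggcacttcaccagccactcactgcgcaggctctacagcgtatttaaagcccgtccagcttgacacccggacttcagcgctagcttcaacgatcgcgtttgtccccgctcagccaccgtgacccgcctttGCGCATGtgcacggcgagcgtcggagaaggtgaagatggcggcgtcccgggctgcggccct

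The Col1a2 promoter held 1 TATA box and 1 CCAAT box, and the Thbs4 promoter held 2 GC boxes. The Ndufa6 promoter held 2 overlapping matches to the NRF1 motif, 1 on each strand, 2 CCAAT boxes and 1 GC box, and the Ndufb8 promoter held 1 match to the NRF1 motif. NRF1 is a transcription factor known for acting on nuclear genes of the respiratory chain. Promoters were at hand for 16 of the 18 complex I genes that fell, and the NRF1 motif was found in 3 of them (18.8%), against 3.94% of all 27457 promoters. Of the 13 fatty acid genes that fell, 9 had a promoter at hand, and 0 of them held the NRF1 motif. Among the complex I promoters, the estrogen-related receptor motif was found in 2 (12.5%), against 4.37% of all promoters, and the CCAAT box in 37.5%, against 37.7%. The GC box was found in 37.5% of the complex I and 55.6% of the fatty acid promoters, against 34.9% of all. A match describes the letters in this window and shows no binding. Complex I genes that did not fall were not searched, so these shares cannot set the fallers apart from other complex I genes. Whether any motif relates to the fall was not tested.

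Genes of fibrillar collagen rose together. All 5 measured fibrillar collagens were called higher, with a median log2 change of 0.99, and the groups' arrays did not overlap for any of them. Col1a1, the first chain of type I collagen, stood at 256, 183, 172 and 221 on the 12-month arrays and at 567, 383, 460.2 and 373 on the 20-month arrays. Its mean rose 2.15-fold, 0.99 ± 0.22 on the log2 scale (adjusted p = 0.0077 by limma). Col1a2 stood at 114, 81.1, 68.9 and 89.8 and then at 268, 206, 267 and 193, 1.14 ± 0.15 on the log2 scale (adjusted p = 9.95e-05 by limma). Every 20-month array lay above the highest 12-month array for both chains, and replicates 1 and 3 of 20 months were the highest. Col3a1, type III collagen, stood at 223, 158, 152 and 141 and then at 427, 376, 459 and 366, a log2 change of 1.14 ± 0.17. The minor fibrillar chains, which set fibril width, moved less on this scale. Col5a1 went from 43.2, 43.8, 41.5 and 44.4 to 77.7, 81.5, 84.4 and 76.8, a log2 change of 0.58 ± 0.10, and its arrays were tight at both ages. Col5a2 went from 25.4 ± 3.31 to 60.1 ± 9.14 (SD, n = 4 each), 0.68 ± 0.11 on the log2 scale (adjusted p = 0.000717 by limma).

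Other collagens were measured but not called. Of 7 genes for network, fibril-associated and short-chain collagens, 0 changed by limma at the adjusted threshold and 3 were higher at an unadjusted p below 0.05, and their median log2 change was 0.09. The highest of them, Col8a1, a short-chain collagen, stood at 18.8, 11, 5.4 and 3.8 and at 21.7, 20.7, 23.9 and 19.2 (limma adjusted p = 0.0844). All 7 had a mean of at most 32 at 12 months, no brighter than the amount added before taking logs, which keeps their log2 changes small. Of 6 basement membrane genes, 0 changed by limma and 1 was higher and 1 lower at an unadjusted p below 0.05.

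Among 9 enzymes that modify and crosslink collagen, 4 rose and 0 fell. Loxl1, a lysyl oxidase that crosslinks elastin and collagen, stood at 177, 126, 135 and 135 at 12 months and at 307, 313, 346 and 349 at 20 months. Its log2 change was 1.05 ± 0.15 (limma adjusted p = 0.000158), and the lowest 20-month array stood far above the highest 12-month array. Plod2, the lysyl hydroxylase that acts on collagen telopeptides, went from 27.8, 32.1, 27.2 and 28.5 to 51.6, 49.9, 49 and 49.2, a log2 change of 0.43 ± 0.07, with very little spread at either age. Pcolce, which speeds the trimming of procollagen, rose by 0.43 ± 0.12 log2 (limma adjusted p = 0.0391). Lox itself was dim, at 11.3, 10, 7.4 and 12.9 and then at 26.8, 14.4, 17 and 22.8, and its call (log2 change 0.30 ± 0.09, limma adjusted p = 0.043) was shared by 0 of its 3 other probe sets. The calls of Pcolce and Lox were lost under 14 and 18 of 22 alternative analyses, those of Loxl1 and Plod2 under 0.

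Of 16 matrix glycoproteins and matricellular proteins, 6 rose and 1 fell. Thbs4 showed the largest rise of any named gene on the scale of log2(intensity + 32). It stood at 54.7, 44.1, 20.6 and 38.5 at 12 months and at 194, 192, 232 and 239 at 20 months, a 5.43-fold rise of the mean and 1.80 ± 0.16 on the log2 scale (adjusted p = 6.49e-08 by limma). Postn (periostin), which fibroblasts secrete in healing wounds, went from 14.6, 10.1, 8.5 and 12.8 to 67.4, 40, 58.7 and 62.7, a log2 change of 1.03 ± 0.11. Fn1 (fibronectin), the scaffold on which collagen fibrils form, went from 55.7, 47.2, 44.1 and 54.5 to 151, 119, 146 and 120.3, a log2 change of 1.01 ± 0.10. The 4 arrays of each age kept apart for all 3 genes. The 2 dimmer Fn1 probe sets gave log2 changes of 0.26 ± 0.10 and -0.02 ± 0.07 and were not called. Mgp (matrix Gla protein), an inhibitor of tissue calcification, was the brightest of the risers in the list. It stood at 999, 1165, 768 and 942 and then at 1629, 1656, 1952 and 2164, 0.92 ± 0.15 on the log2 scale (adjusted p = 0.000366 by limma).

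Dim matrix genes also rose. Ltbp2, a microfibril protein related to those that hold latent TGF-beta, was near 0 at 12 months (2.1, 1, 1.2 and 1.8) and stood at 24.7, 20.1, 23.7 and 24.5 at 20 months, a log2 change of 0.72 ± 0.06 that the amount added before the log keeps small. A second Ltbp2 probe set stayed at 2.3 to 9.3 over the 8 arrays and was not called. Spp1 (osteopontin), a cell adhesion and cytokine-like protein, went from 11.5, 12.7, 9.9 and 14.8 to 27.5, 33, 30.3 and 37.2, a log2 change of 0.53 ± 0.09. Vtn (vitronectin), a plasma adhesion protein made mainly in the liver, was the member that fell. It stood at 53.4, 47.7, 49.4 and 38.3 and then at 32.3, 13.4, 19.6 and 8.7, -0.67 ± 0.13 on the log2 scale (adjusted p = 0.00286 by limma).

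**Figure D2:**
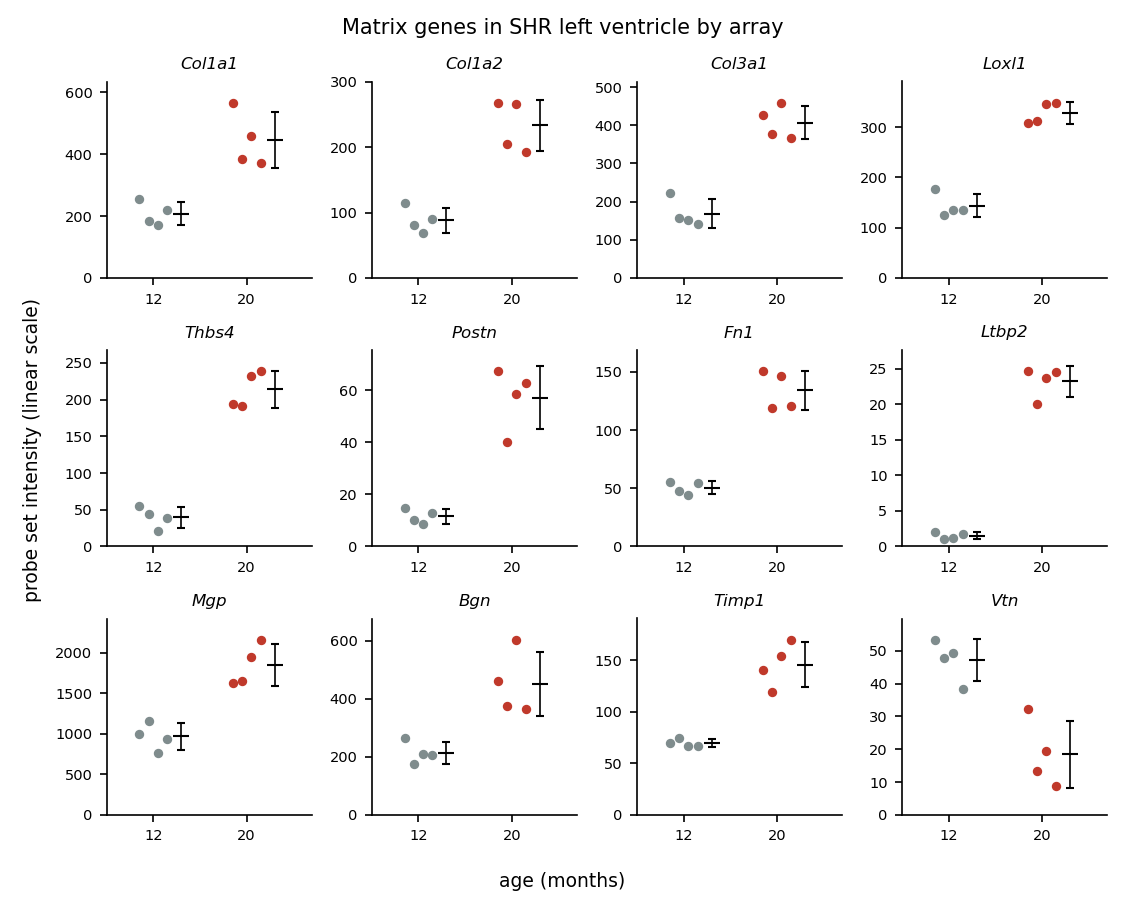
Intensity of 12 matrix genes on each of the 4 arrays at 12 months (grey) and at 20 months (red) in SHR, brightest probe set, with the mean and SD beside the points on axes that start at 0. The arrays of the 2 ages do not overlap in any panel, 11 genes are higher at 20 months, and Vtn is lower.

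Of 18 proteoglycans, 2 rose and 0 fell. Bgn (biglycan), a small proteoglycan that binds collagen, stood at 266, 174, 209 and 206 and then at 463, 376, 604 and 364, 0.96 ± 0.15 on the log2 scale (adjusted p = 0.000318 by limma). Its dimmer probe set gave the same log2 change of 0.96. Vcan (versican), a large proteoglycan of loose matrix, was dim and passed narrowly, with 0.26 ± 0.08 on the log2 scale (adjusted p = 0.0457 by limma) and overlapping arrays, a call lost under 15 of 22 alternatives.

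Among proteases and protease inhibitors, 8 of 29 were called higher and 0 lower. On the inhibitor side, Timp1, which blocks matrix metalloproteinases, stood at 70, 75, 66.5 and 67.3 and then at 141, 119, 154 and 170.3, 0.80 ± 0.11 on the log2 scale (adjusted p = 0.000132 by limma). Timp2 rose by 0.52 ± 0.13 log2, Serpine2 (protease nexin 1) by 0.60 ± 0.12 and Serping1 (the C1 inhibitor) by 0.66 ± 0.12. On the protease side, the gelatinase gene Mmp2 rose by 0.43 ± 0.09 log2, from a mean of 57.8 ± 5.05 to 89.8 ± 16.1 (SD, n = 4 each). The 9 other measured metalloproteinases were not called. Among lysosomal cathepsins, 3 rose. Ctsk, the cathepsin that cleaves native collagen, went from 21.7, 23.8, 23.8 and 20.2 to 56.8, 40.2, 39.9 and 47.2 (log2 change 0.52 ± 0.07, limma adjusted p = 0.000158). Ctss, typical of macrophages, went from 94.9, 127, 95.7 and 96.6 to 184, 172, 166 and 202 (log2 change 0.66 ± 0.13), and Ctsb from 207 ± 20.2 to 290.2 ± 27.9 (SD, n = 4 each). With the 12-month arrays of the first day alone, 3 of the 29 were called.

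TGF-beta drives fibroblasts to make matrix, and 6 of 28 measured genes of TGF-beta and BMP signalling rose while 0 fell. Of the 3 ligand genes, Tgfb2 went from 16.7, 6.4, 13.2 and 5.7 to 30.5, 21.3, 28.7 and 21.7 (log2 change 0.44 ± 0.12, limma adjusted p = 0.0254). Tgfb3 gave log2 changes of 0.43 ± 0.11 and 0.45 ± 0.11 on its 2 probe sets, both called. Tgfb1 stood at 37.7, 36.9, 29.1 and 48.6 and at 57.6, 39.8, 43.5 and 55.1, overlapping, and was not called (log2 change 0.21 ± 0.13, limma adjusted p = 0.499). The difference between the ligands was not tested. Tsc22d1, a leucine zipper gene first described as induced by TGF-beta, had the largest log2 change of the list. It stood at 331, 372, 437 and 307 and then at 575, 736, 843 and 826, 0.98 ± 0.17 on the log2 scale (adjusted p = 0.000855 by limma). Ltbp2, described above, is a member too, and Inha (the inhibin alpha subunit) and Gdf15 (a stress cytokine of the family) rose by 0.32 ± 0.09 and 0.26 ± 0.07. Receptors and Smad genes were not called. The count of 6 fell to 2 without replicate 3 of 20 months, to 2 without replicate 2 of 12 months and to 3 with quantile normalization, and hybridization day as a random block also gave 3.

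Of 21 genes of integrins and focal adhesion, 3 rose and 0 fell. Csrp2, a LIM protein of smooth muscle and activated stellate cells, went from 18.8, 21.9, 25.4 and 32.2 to 66.7, 55.8, 81.1 and 80.7, 0.86 ± 0.13 on the log2 scale (adjusted p = 0.000176 by limma). Capg, an actin capping protein, rose by 0.67 ± 0.11 log2, and Itgb1, the shared beta chain of collagen and fibronectin receptors, by 0.55 ± 0.14 (limma adjusted p = 0.0233). Fstl1, a secreted follistatin-like glycoprotein in none of the lists, stood at 87.6, 59.3, 69.5 and 56.4 and then at 131, 144, 198 and 177, a log2 change of 0.96 ± 0.18. Anxa2, a phospholipid-binding annexin also in none of the lists, rose by 0.70 ± 0.10 log2.

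Some genes of complement and of macrophages rose. Of 21 genes of complement and coagulation, 4 rose and 0 fell. The classical pathway proteases C1s and C1r rose by 0.69 ± 0.11 and 0.50 ± 0.11 log2, the recognition chain C1qb by 0.54 ± 0.14, and Serping1, their inhibitor, stood at 96.9, 78.5, 92.8 and 80.5 and then at 179, 146, 169 and 131. Lyz2, Ctss, Lgals3 and C1qb were the 4 risers among 10 markers of macrophages and monocytes, and 0 fell. Lyz2 (lysozyme) went from 250.3, 235, 165 and 319 to 361, 405, 396 and 753, where replicate 4 stood apart at the top (log2 change 0.87 ± 0.23, limma adjusted p = 0.0253). Lgals3 (galectin-3) went from 75.1, 75.3, 70.9 and 62 to 111, 113, 132 and 121. The 10 markers summed to 509 to 692 at 12 months and to 914 to 1423 at 20 months. The common leukocyte antigen Ptprc and the receptor Csf1r had log2 changes of 0.15 and 0.01 and were not called. The Csf1r probe set was too dim to pass the stricter of the filters tried. At each age 5 of the 10 markers had a mean below 32, which keeps their log2 changes small. With the 12-month arrays of the first day alone, 0 of the 10 were called, and 2 without replicate 3 of 12 months or without replicate 4 of 20 months.

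Markers of the other cell types of the wall moved to different extents. Of 11 fibroblast markers, 5 rose (Col1a1, Col1a2, Col3a1, Vim and Thy1), and the list summed to 2552 to 2987 at 12 months and to 3578 to 4295 at 20 months. Thy1, a fibroblast surface protein outside the collagens, went from 9.4, 22.9, 18.7 and 14.6 to 35.8, 36.2, 46.3 and 42.8 (log2 change 0.58 ± 0.09). Of 8 endothelial and 10 smooth muscle and pericyte markers, 0 were called by limma, and 0 and 2 were higher at an unadjusted p below 0.05. Their sums were 164 to 216 against 203 to 251 and 1599 to 1872 against 2118 to 2442. Of 15 nerve and Schwann cell markers, 3 rose, with Pmp22 (peripheral myelin protein) at 0.48 ± 0.10 log2, Ncam1 at 0.59 ± 0.12 and the dim Nefm at 0.17 ± 0.04. Of 15 lymphocyte and mast cell markers, Cd4 rose (0.28 ± 0.07), and 14 of the 15 lay below 32 at both ages. In whole ventricle, a higher share of a cell type and more RNA per cell cannot be told apart, nor can fewer cells of a type and less RNA per cell, and the part of these marker shifts in the changes of single genes was not tested.

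Complex I, the entry point of electrons from NADH, had the largest share of lowered genes among the lists. Of 26 measured genes of complex I and coenzyme Q synthesis, 18 fell and 0 rose (69.2%, against 2.18% of all genes and 10.8% of bright genes), with a median log2 change of -0.48. The falls of the 18 genes ran from -0.38 to -0.62 on the log2 scale. Ndufs7, a core subunit that carries an iron-sulfur cluster, stood at 749.5, 781, 751 and 739.7 at 12 months and at 445, 520.2, 397 and 571 at 20 months, -0.62 ± 0.12 on the log2 scale (adjusted p = 0.00217 by limma). Ndufv2, a core subunit of the NADH-oxidizing module, stood at 1064, 1049, 1083 and 1086 and then at 749, 781, 558 and 708, a log2 change of -0.60 ± 0.14. The 12-month arrays of both genes lay within a narrow band, and all 20-month arrays lay below it, with replicate 3 the lowest.

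Accessory subunits were among the 18. Ndufb5 went from 622, 722, 706 and 756 to 439.6, 491, 408 and 511, a log2 change of -0.57 ± 0.11, and its dimmer probe set changed by -0.55 ± 0.15. Ndufa6 went from 449, 526, 444 and 495 to 306, 242, 293 and 418, a log2 change of -0.58 ± 0.12, while its dimmer probe set overlapped between the ages and was not called (-0.15 ± 0.18). Ndufb8 went from 1581, 1750.3, 1557 and 1521 to 1013, 1212, 972 and 1436, -0.47 ± 0.13 on the log2 scale (adjusted p = 0.0394 by limma), a call lost under 15 of 22 alternatives. Of the 8 members without a call, 5 had log2 changes between -0.29 and -0.41. Ndufs1, a dim probe set here, changed by -0.03 ± 0.12, and Coq7 and Coq3, which make coenzyme Q rather than complex I, had values of 0.02 and 0.20. The Coq7 probe set was too dim to pass the stricter of the filters tried, so a change of Coq7 could have been missed. The count of 18 was 5 without replicate 3 of 20 months, 9 to 11 without replicate 2 or 4 of 12 months or replicate 1 of 20 months, 11 in a fit of the 8 arrays alone and 11 with cyclic loess normalization. It was 1 and 6 with the 12-month arrays of the first or second day alone.

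**Figure D3:**
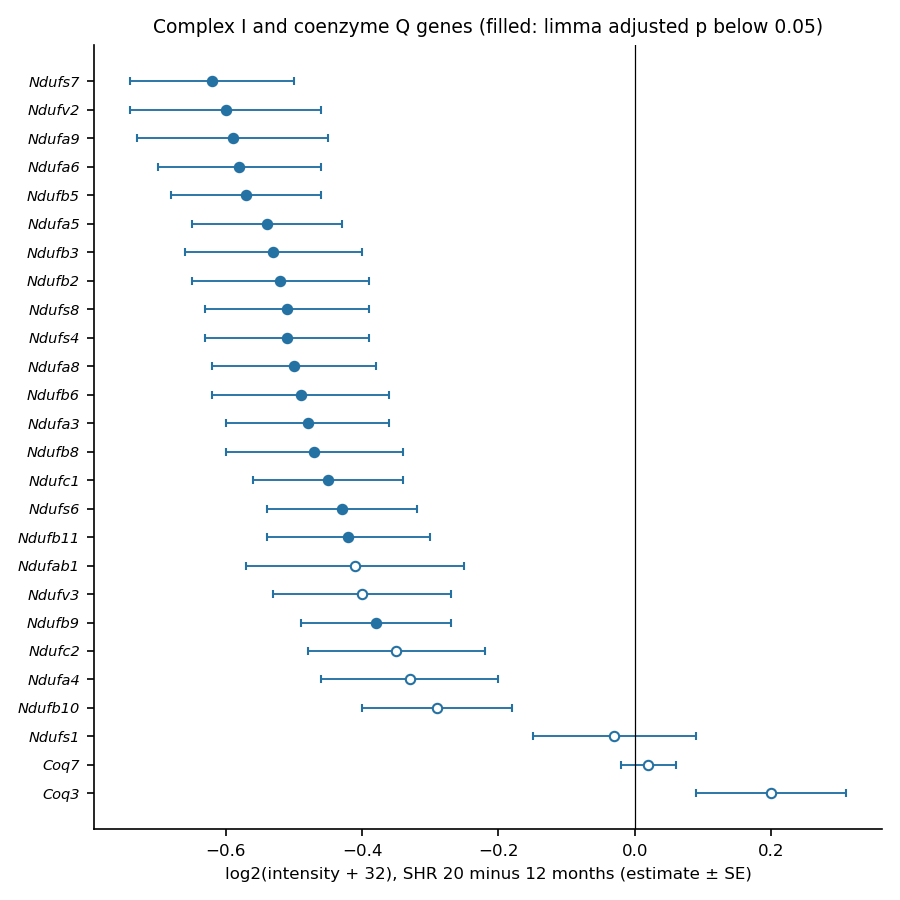
Log2 change from 12 to 20 months in SHR (estimate ± SE from limma) of the 26 measured genes of complex I and coenzyme Q, with called genes filled. All 18 called genes lie between -0.38 and -0.62, and only Coq7 and Coq3 lie above 0.

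The later steps of the respiratory chain showed fewer calls. Of 16 genes of complexes II to IV and cytochrome c, 5 fell and 0 rose (median -0.31), namely Uqcrc2, Uqcrfs1 and Cyc1 of complex III and Cox7b and Cox8b of complex IV. Cox7b stood at 745, 854, 810.3 and 1009 and then at 449, 594, 477 and 709, -0.60 ± 0.14 on the log2 scale (adjusted p = 0.0146 by limma). Cox8b, the heart form of subunit VIII, fell from 1639 ± 242 to 1093 ± 251 (SD, n = 4 each), which is a log2 change of -0.59 ± 0.13, while the general form Cox8a changed by 0.05 ± 0.14 and was not called. The count of 5 was 0 without replicate 4 of 12 months or replicate 3 of 20 months, and 2 or 3 without any other single array but replicate 4 of 20 months. With hybridization day as a random block it was 2. Of 18 genes of ATP synthase and mitochondrial carriers, 3 fell (16.7%, against 10.8% of bright genes). They were Fmc1, an assembly factor of ATP synthase (-0.68 ± 0.17), Atp5f1c, the gamma subunit of its rotor (-0.53 ± 0.12), and the oxoglutarate carrier Slc25a11 (-0.37 ± 0.10). The adenine nucleotide translocase Slc25a4, the heart form, changed by -0.31 ± 0.15 and was not called. The count of 3 was 1 without replicate 2 of 12 months or replicate 3 of 20 months, and 5 without replicate 4 of 20 months.

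Few genes that build mitochondria were called. Grpel1, a cochaperone of protein import, stood at 178, 219, 186 and 216 and then at 139.9, 151, 124 and 125, -0.47 ± 0.09 on the log2 scale (adjusted p = 0.00285 by limma), and Phb2 (prohibitin 2) fell by 0.27 ± 0.08 log2. They were the 2 of 18 genes of mitochondrial import and upkeep that changed (11.1%), a share near the 10.8% of bright genes that fell. Of the 18, 11 had a mean above 100 at 12 months. Of 16 measured mitochondrial ribosomal protein genes, a set picked by symbol after the values were seen, 3 fell and 0 rose, namely mrpl11 (-0.59 ± 0.11), Mrpl40 (-0.47 ± 0.12) and Mrpl38 (-0.32 ± 0.09), and the median log2 change of the set was -0.16.

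Genes for several steps of fatty acid oxidation fell. Of the 48 genes measured for taking up and oxidizing fatty acids, 13 fell and 0 rose, with a median log2 change of -0.23. The 4 acyl-CoA dehydrogenases that start each round all fell, Acadm by 0.59 ± 0.14 log2, Acadvl by 0.53 ± 0.12, Acads by 0.48 ± 0.10 and Acadl by 0.38 ± 0.09. Of the later steps, a hydratase and 2 thiolase genes were called. The hydratase Echs1 went from 304, 523, 320.3 and 445 to 176, 266, 263 and 273 (log2 change -0.62 ± 0.15, limma adjusted p = 0.0173). Acaa2, the thiolase that ends the cycle, went from 1960.0, 2105, 1916 and 1818 to 1315, 1388, 1134 and 1226 (log2 change -0.61 ± 0.12), and Hadhb, the thiolase chain of the trifunctional protein, fell by 0.44 ± 0.11. The hydroxyacyl-CoA dehydrogenase Hadh and Hadha, the other chain of the trifunctional protein, had log2 changes of -0.03 ± 0.07 and -0.26 ± 0.11 and were not called. The Hadh probe set was too dim to pass the stricter of the filters tried. The amount added before the log keeps its log2 change small, so a change of Hadh could have been missed. Auxiliary enzymes for unsaturated fatty acids were among the 13. Ech1, the dienoyl-CoA isomerase, had the largest log2 fall of the list, from 670.0, 679.9, 654 and 639.7 to 343, 418, 363 and 362 (log2 change -0.78 ± 0.12, limma adjusted p = 0.000176), and Eci1 and Decr1 fell by 0.49 ± 0.12 and 0.41 ± 0.12.

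Genes for uptake and entry were not called, but Acsl1, Slc25a20, Lpl and Cpt2 lay close to the threshold. Their log2 changes were -0.49 ± 0.14, -0.37 ± 0.11, -0.30 ± 0.09 and -0.30 ± 0.10 (limma adjusted p = 0.051, 0.0601, 0.0677 and 0.0903). Of the 48 genes of the list, 25 were lower and 2 higher at an unadjusted p below 0.05 by limma. The transporter Cd36 had a log2 change of -0.05 ± 0.13, the heart fatty acid binding protein Fabp3 -0.33 ± 0.13, the carnitine palmitoyltransferase Cpt1b -0.20 ± 0.13 and the nuclear receptor Ppara -0.06 ± 0.08. Rxrg, a retinoid X receptor that pairs with the PPAR receptors, did fall, from 255, 234, 281 and 254 to 163, 152, 121 and 161 (log2 change -0.67 ± 0.14). The count of 13 was 4 and 2 with the 12-month arrays of the first or second day alone and 8 without replicate 2 of 12 months.

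Of 13 genes for the breakdown of ketone bodies and branched-chain amino acids, 5 fell and 1 rose. Acat1, the thiolase shared by ketone and isoleucine breakdown, stood at 489.9, 511, 493 and 528 and then at 274, 342, 294 and 328, -0.66 ± 0.11 on the log2 scale (adjusted p = 0.00102 by limma). Both chains of the branched-chain dehydrogenase core fell, Bckdha by 0.66 ± 0.13 log2 and Bckdhb by 0.41 ± 0.11, and Auh of leucine breakdown by 0.47 ± 0.10. With the 12-month arrays of either day alone, 2 of the 13 fell. Of 15 genes of the citrate cycle and its feeders, Suclg1, Me1 and Slc25a11 fell, by 0.42 ± 0.12, 0.30 ± 0.08 and 0.37 ± 0.10, and 0 rose. The 3 calls were lost with hybridization day as a random block, and the count was 0 or 1 without any 1 of the 12-month arrays or replicate 3 of 20 months. Got1, the cytosolic aspartate aminotransferase of the malate-aspartate shuttle, went from 680.1, 682, 658 and 607 to 478, 502, 384 and 430.5 (log2 change -0.52 ± 0.10), and Glul (glutamine synthetase) rose by 0.34 ± 0.10.

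Several enzymes are encoded by a muscle form and by a form of other or fetal tissues, and related genes of this kind moved in different directions. These pairs were picked after their values were seen, and the difference within each pair was not tested. Rpl3, the general form of a ribosomal protein, went from 289, 292, 221 and 246 to 349.8, 428, 568 and 549 (log2 change 0.77 ± 0.16, limma adjusted p = 0.0048). Rpl3l, its counterpart restricted to heart and skeletal muscle, went from 357, 394, 350.3 and 411 to 194, 269, 196 and 228 (log2 change -0.70 ± 0.13, limma adjusted p = 0.00285). Both probe sets of each gene were called in the same direction, and these were the 2 called genes among 39 ribosomal proteins and translation factors. Bcat2, the mitochondrial branched-chain aminotransferase of muscle, fell by 0.43 ± 0.09 log2. Bcat1, the cytosolic form, went from 2.5, 3.3, 2.7 and 1.3 to 6.2, 9.4, 8.6 and 12.2, a rise of 0.25 ± 0.05 at intensities near the bottom of the scale.

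Enzymes of glucose and creatine metabolism gave calls for some of their forms. Of the phosphofructokinase genes, the muscle form Pfkm went from 638, 533, 644 and 535 to 556, 468, 324 and 296, overlapping (log2 change -0.52 ± 0.15, limma adjusted p = 0.0395). The liver form Pfkl rose by 0.32 ± 0.09, and the platelet form Pfkp went from 43.7, 32.4, 35.8 and 38.9 to 90.5, 61.9, 71.6 and 54.6 (0.53 ± 0.10). Hk1, a widely expressed hexokinase, rose by 0.43 ± 0.12, and the muscle form Hk2 changed by 0.13 ± 0.11 and was not called. Of the glycogen phosphorylases, the brain form Pygb fell (-0.43 ± 0.12), while the muscle form Pygm had a value of -0.21 ± 0.11 and was not called. In all, 3 of 32 genes of glycolysis and glucose use rose and 2 fell, and with hybridization day as a random block 1 rose and 0 fell. The calls of Pfkm, Pfkl and Hk1 were each lost under 12 or 13 of 22 alternatives, and that of Pfkp under 0. Ckb, the brain form of creatine kinase, went from 632, 497, 543 and 589.9 to 749.5, 800.4, 867 and 786 (log2 change 0.48 ± 0.11). The muscle form Ckm and the mitochondrial form Ckmt2 had values of -0.30 ± 0.15 and -0.37 ± 0.11 and were not called on their brightest probe sets, although the arrays of the 2 ages did not overlap. The dimmer Ckmt2 probe set fell by 0.45 ± 0.11 (limma adjusted p = 0.0171).

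**Figure D4:**
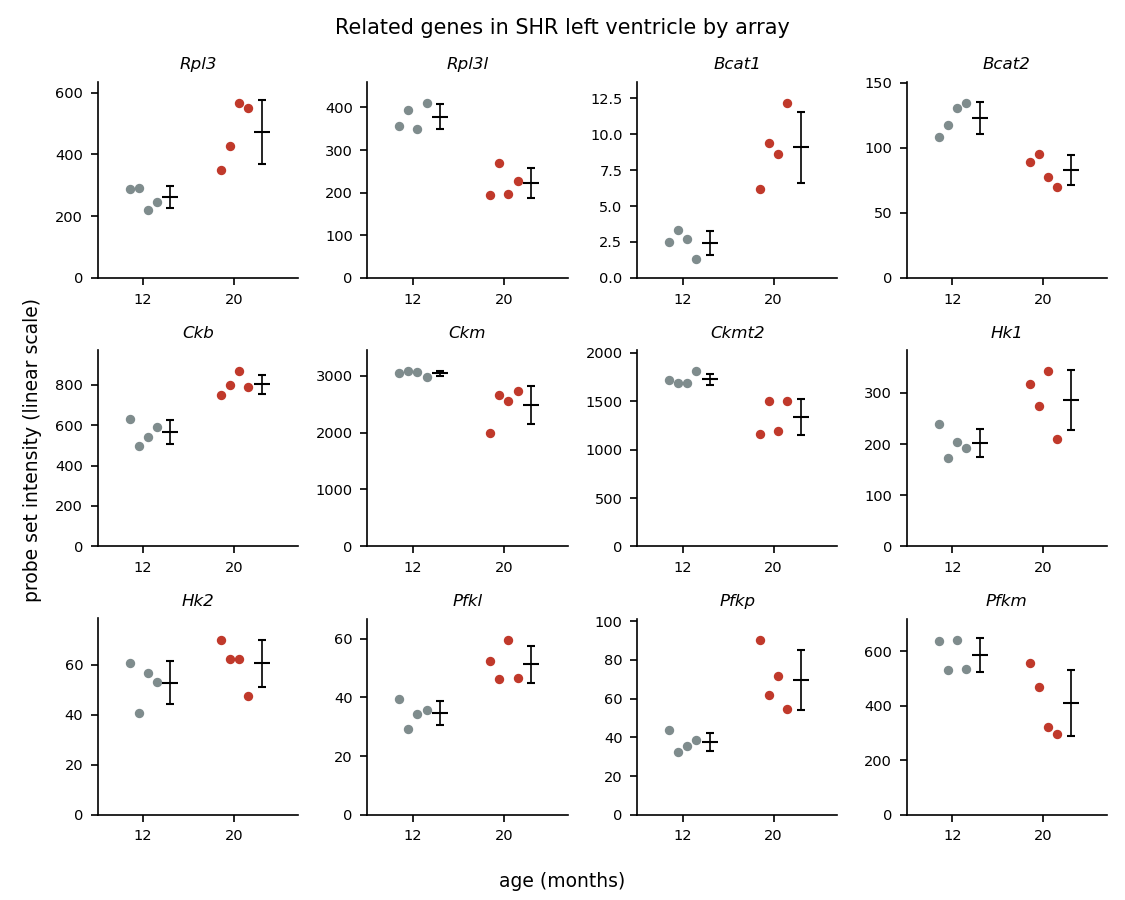
Intensity on each array at 12 months (grey) and 20 months (red) in SHR for 5 families of related genes, brightest probe set, with the mean and SD beside the points on axes that start at 0. Rpl3, Bcat1, Ckb, Hk1, Pfkl and Pfkp are higher at 20 months, Rpl3l, Bcat2 and Pfkm are lower, and Ckm, Ckmt2 and Hk2 were not called.

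Of 17 genes that the field uses as signs of hypertrophy and wall stress, 3 rose and 0 fell. The risers were Nppa, Myl4 and Ckb, the last described above (17.6%, against 2.76% of all genes and 5.01% of bright genes). Nppa (atrial natriuretic peptide), a hormone that stretched muscle releases, stood at 2710.5, 2537, 2219 and 2481 and then at 3016, 3698, 4338 and 4875. Its brightest probe set passed (log2 change 0.65 ± 0.18, limma adjusted p = 0.0314), its 3 other probe sets had adjusted p-values of 0.147, 0.265 and 0.0754, and replicate 4 of 20 months was the highest. Nppb (brain natriuretic peptide) stood at 650.3, 968, 996 and 932 and at 1099, 1125, 1108 and 1235, without overlap but with an adjusted p of 0.179 by limma. The beta and alpha myosin heavy chains Myh7 and Myh6, whose probe sets share sequence and may cross-detect, had log2 changes of -0.21 ± 0.14 and -0.20 ± 0.13, and skeletal actin Acta1 0.18 ± 0.11. None of these 3 was called. Myl4, the atrial essential myosin light chain, was the 1 of 21 sarcomere genes that changed, from 10.1, 11.9, 11.5 and 18.4 to 40.1, 20.3, 22 and 40 (log2 change 0.46 ± 0.10, limma adjusted p = 0.00888). Nppa and Myl4 are both atrial markers, and the 7 atrial markers summed to 4118 to 4634 and then to 5084 to 6938, so atrial tissue in a sample and higher ventricular expression cannot be told apart.

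Calcium and channel genes were mostly without a call. Of 26 genes of calcium cycling, Dhrs7c, a short-chain dehydrogenase of the sarcoplasmic reticulum, fell, from 76.1, 67.5, 55.5 and 76.1 to 22.7, 23.4, 41.2 and 34 (log2 change -0.70 ± 0.12, limma adjusted p = 0.00128). The calcium pump Atp2a2 and its inhibitor Pln had values of -0.13 ± 0.14 and -0.31 ± 0.10. Of 28 channels, pumps and gap junction genes, Cacna1g, a T-type calcium channel of fetal heart and pacemaker cells, rose, from 43.6, 34.3, 36.9 and 33.2 to 70.9, 59.1, 76 and 49.6 (log2 change 0.47 ± 0.09), while the main gap junction gene Gja1 had a value of -0.03 ± 0.09.

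Few hormone, growth factor and stress genes were called. Of 24 genes of renin-angiotensin, endothelin and adrenergic signalling, Hsd11b1, which regenerates active glucocorticoid, rose by 0.67 ± 0.19 log2 (limma adjusted p = 0.0443), and Ace and Agt had values of 0.16 ± 0.10 and 0.24 ± 0.13. Of 39 growth factors and receptors, Igfbp6 went from 55.8, 68.1, 45.2 and 45.6 to 95, 93.7, 80.1 and 104 (log2 change 0.55 ± 0.09), Grn (progranulin) rose by 0.51 ± 0.11, and Vegfb, a growth factor tied to fatty acid handling in the endothelium, went from 160.2, 148, 158 and 141 to 98.2, 109.6, 108 and 94.4 (log2 change -0.45 ± 0.09). Hmox1 (heme oxygenase 1) rose from 64.9, 62.2, 53.4 and 59.9 to 102, 118, 106 and 94.1 (log2 change 0.57 ± 0.10). It was 1 of 2 risers among 33 genes of oxidative stress and metal binding, the other being Gclc, a subunit of the enzyme that starts glutathione synthesis (0.25 ± 0.07, limma adjusted p = 0.049). The glutathione transferase Gstp1 fell (-0.40 ± 0.10, limma adjusted p = 0.0174). Lcn2 (lipocalin 2), an iron-binding protein of innate immunity in none of the lists, went from 22.1, 21.9, 20.8 and 15.1 to 92.8, 38.2, 93.9 and 25.8, with the 20-month arrays in an upper and a lower pair (log2 change 0.78 ± 0.17). Nr4a1, an orphan nuclear receptor and immediate early gene, had the largest log2 fall of any named gene, from 229.9, 81.3, 227 and 105 to 48.8, 50.1, 22.2 and 40.4 (log2 change -1.33 ± 0.28, limma adjusted p = 0.00537). Its 12-month values formed an upper pair (replicates 1 and 3) and a lower pair (replicates 2 and 4), each pair holding 1 array of each day, and the other 26 immediate early genes were not called. Of all 27, Nr4a1 included, 6 were lower and 3 higher at an unadjusted p below 0.05 by limma.

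Many measured functions gave no call by limma at all. These included the lists of heat shock and reticulum stress, apoptosis, the cell cycle and the circadian clock, of which 5 of 24, 1 of 17, 3 of 21 and 1 of 9 genes passed an unadjusted p below 0.05. Of the 12 ventricular cardiomyocyte markers 0 were called, and 3 were lower at an unadjusted p below 0.05 by limma. The log2 change was negative for 11 of the 12, with a median of -0.16 in SHR beside 0.09 in WKY. Their median interaction was -0.38, and 0 were called. The part of this shift in the falls of mitochondrial and fatty acid genes was not tested. Of 37 cytokines, chemokines and their receptors only Icam1, an adhesion molecule for leukocytes, rose (0.49 ± 0.10 log2), of 22 genes of antigen presentation and interferon response only Mx1 (0.40 ± 0.09), and of 33 genes of ubiquitin, proteasome and autophagy only Psmb2 fell (-0.36 ± 0.10). A gene without a call may still have changed by less than this number of arrays can show.

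The called genes mostly had intermediate means at 16 months in SHR. The 16-month mean lay between those of 12 and 20 months for 173 of the 191 higher probe sets (90.6%) and for 140 of the 146 lower ones (95.9%), against 37.9% of all tested, a description that shares its arrays with the calls. Called probe sets were also selected for a wide gap between 12 and 20 months, into which a mean falls more easily. The 37.9% is therefore not a like background. Thbs4 stood at 59.3, 143, 162 and 108 at 16 months, with replicate 1 close to the 12-month arrays and replicate 3 closest to those of 20 months. Postn stood at 11.5, 22.3, 37.2 and 25.5 and Col3a1 at 159, 296, 314 and 241, and in both genes replicate 1 again lay within or near the range of 12 months. Ech1 stood at 602, 413, 352 and 502, with replicate 1 nearest to the 12-month values. Acat1, at 231, 341, 342 and 374, and Ndufs7, at 585, 574, 524 and 445, were below every 12-month array on all 4 arrays of 16 months. Hybridization day also split the 16-month group. Replicates 1 and 2 shared the day of replicates 3 and 4 of 12 months. Replicates 3 and 4 of 16 months were run on another day, with no 12-month or 20-month array beside them, and their chip lot is not recorded. The part of day and lot in the 16-month values was not tested.

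Whether the change with age in SHR differed from that in WKY was tested by the strain by age interaction over the 8 SHR and 7 WKY arrays of 12 and 20 months. The interaction was called for 27 of 7280 probe sets (0.371%) and for 19 of 4172 genes (0.455%). Of these genes, 16 (0.384% of all genes) changed further upward in SHR, namely Thbs4, Ltbp2, Postn, Fn1, Loxl1, Col1a2, Col5a2, Ctsk, Ctss, Capg, Anxa2, Pfkp, Tsc22d1, Eln, Myl4 and Myl7, and 3 (0.0719%) further downward, namely Ech1, Rpl3l and Pllp. In WKY alone, 4 probe sets changed between 12 and 20 months (0.0549%). No hybridization day held arrays of both strains, so the day can differ in its effect between the 2 age spans, which was not tested. The WKY arrays also came from another chip lot and another hybridization cocktail than the SHR arrays of these ages. A difference in level between the strains and one of lot, cocktail or day therefore cannot be told apart.

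Thbs4 was nearly dark in WKY, at 3.7, 5.6, 2.2 and 4.1 at 12 months and 5.9, 7.8 and 6.9 at 20 months. Its log2 change in WKY was 0.12 ± 0.17, and the difference from SHR was 1.69 ± 0.23 (limma adjusted p = 0.000426). Ltbp2 stayed at 3.1, 1.1, 1.3 and 1.7 and then 1.3, 2.5 and 2.4 in WKY, a difference between the strains' changes of 0.71 ± 0.09 (limma adjusted p = 0.000339). Fn1 stood at 51.7, 54.1, 42.6 and 43.7 and then at 71.2, 63.4 and 51.1 in WKY, a level near that of SHR at 12 months, and its difference was 0.78 ± 0.15. Rpl3l had changes of opposite sign in the strains, with values from 322, 345, 285 and 326 to 421, 367 and 479.6 in WKY, and its difference was -1.07 ± 0.20 (limma adjusted p = 0.0174). Ech1 stood at 843, 825, 1024 and 866 and then at 944, 847 and 832 in WKY, with a difference of -0.76 ± 0.17 (limma adjusted p = 0.0483). For Myl4, Myl7 and Eln the 20-month mean in WKY lay below that of 12 months, and of the 3 only Myl4 was called in SHR. Myl4 went from 32, 15.1, 22 and 21.7 to 2.4, 3.5 and 11 in WKY, and Myl7, the atrial regulatory light chain, had a log2 change of -2.04 ± 0.36 there against 0.49 ± 0.33 in SHR, where it was not called.

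Few of the mitochondrial genes had a called interaction. Of the 26 genes of complex I and coenzyme Q, 0 had an interaction called by limma and 11 had one at an unadjusted p below 0.05, with a median log2 change of -0.08 in WKY beside -0.48 in SHR. Ndufs7 changed by -0.32 ± 0.12 in WKY and Ndufb5 by 0.14 ± 0.12, with interaction adjusted p-values of 0.603 and 0.0654 by limma. Of the 48 fatty acid genes, 1 (Ech1) had a called interaction, which was lost under 22 of 29 alternatives. The median of the 48 was -0.02 in WKY beside -0.23 in SHR. Of the 5 fibrillar collagens, 2 had a called interaction, with a median of 0.05 in WKY beside 0.99 in SHR. These 2 calls were lost under 17 (Col1a2) and 21 (Col5a2) of the 29 alternatives. Col1a1 was among the other 3 on its brightest probe set (limma adjusted p = 0.297), while a dimmer probe set passed (limma adjusted p = 0.00785). The 27 interactions became 4 and 5 without replicate 3 or 4 of WKY at 20 months and 6 without replicate 1 of WKY at 12 months. They became 9 to 15 without replicate 2, 3 or 4 of SHR at 12 months or replicate 1 or 3 of SHR at 20 months, and 4 with hybridization day as a random block.

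**Figure D5:**
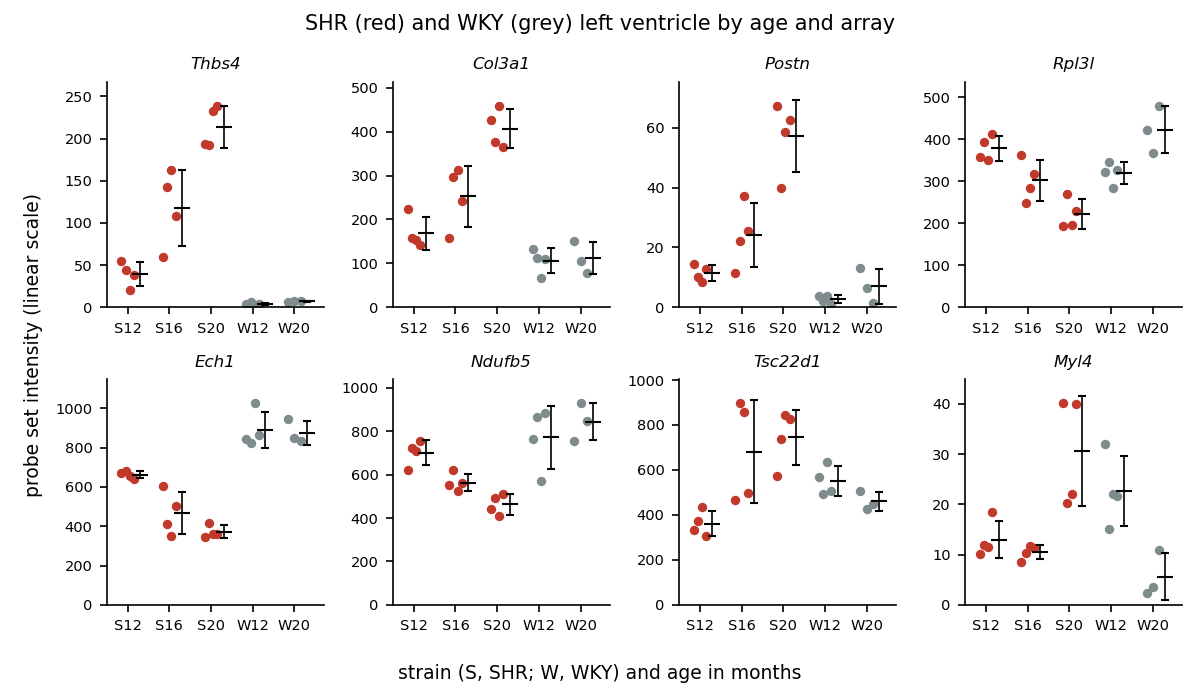
Intensity of 8 genes on each array of SHR at 12, 16 and 20 months (red) and of WKY at 12 and 20 months (grey), brightest probe set, with mean and SD. Thbs4, Col3a1 and Postn are highest in SHR at 20 months, Rpl3l and Ech1 are lowest there, and Myl4 is lower in WKY at 20 than at 12 months.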

How the data were processed

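The authors deposited 1 linear intensity for each probe set on each Affymetrix rat array. How probes were summarised is not given in the sources used here, but the equal 2% trimmed means of 50.08 to 50.11 on the 8 arrays show that arrays were scaled before deposit. The instrument records that the authors deposited (unit other) gave only hybridization day, lot, cocktail, station and module. The number of arrays limits the precision.

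To each intensity 32 was added before taking log2, so changes of dim genes are understated. Of 8799 probe sets, 59 controls were left out, and 7280 lay above the 30th percentile on at least 3 arrays and were tested. The platform annotation paired 7006 probe sets with 1 symbol, 308 with several and 1426 with none, and only those with 1 are named. The probe set with the largest rise (log2 change 1.96) carries several symbols and stays unnamed.

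With limma 3.58.1 (R 4.3.3), 1 linear model with a mean for each of the 6 groups was fitted to the 23 arrays, with lmFit, contrasts and a trended eBayes. P-values were two-sided with Benjamini-Hochberg adjustment over 7280 probe sets. The fit was tested on simulated data. Errors of log2 changes are SE, and levels are means ± SD. Lists and members were chosen with earlier results of these data known, and describe counts only. Of the genes named, most were taken by a rule (the largest called changes without overlap, up to 4 members of each list and a fixed set of heart genes). The genes Acadl, Acadm, Acadvl, Anxa2, Auh, Bckdhb, Coq3, Coq7, Cox8a, Csf1r, Ctsb, Decr1, Eci1, Eln, Hadh, Hadha, Hadhb, Hk1, Hk2, Inha, Mmp2, mrpl11, Mrpl38, Mrpl40, Myl7, Ndufb8, Ndufs1, Pllp, Ptprc, Pygm, Slc25a4, Spp1, Timp2, Uqcrfs1 and Vim were named after their values were seen. Alternatives were the amount added, the filter, 3 other normalizations, a fit of the compared groups alone, hybridization day as a random block, a replicate block, eBayes without trend and leaving out each array. The fluidics module as a block and the 12-month arrays of each day alone were added after seeing the data.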

Additional observations from a re-analysis of the deposited data

Results flagged for a closer look

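Single arrays stood far from the rest of their group, by Dixon's test at its 95% critical value, in 7 of 282 groups of 4 arrays tested over the named genes, where chance flags about 1 in 20 groups. At 20 months, Lyz2 stood at 752.7 and Atp5f1c at 1141.4 on replicate 4, above the other arrays, and Echs1 at 175.7 and Gdf15 at 8.3 on replicate 1, below them. At 12 months, Bckdhb stood at 158.8 and Ctss at 126.8 on replicate 2, above the others, and Pmp22 at 100.4 on replicate 4, below them.

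The change from 12 to 20 months differed between SHR and WKY by the interaction test of limma for 19 genes. Of these, 3 stayed called under all 29 alternative analyses. On the log2 scale, the change in SHR minus that in WKY was 2.53 for Myl7, 1.69 for Thbs4, 1.22 for Tsc22d1, 1.17 for Eln, 1.1 for Loxl1, 1.03 for Col1a2 and 1.0 for Myl4. It was 0.89 for Capg, 0.87 for Ctss and Postn, 0.78 for Fn1, 0.75 for Anxa2 and Col5a2, 0.71 for Ltbp2, 0.65 for Pfkp and 0.48 for Ctsk. It was -1.07 for Rpl3l, -0.76 for Ech1 and -0.69 for Pllp. The strains were hybridized on different days, from different chip lots and with different cocktails. The part of the day, lot and cocktail in these differences was not tested.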

How the results depend on the processing

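The 337 calls (191 higher, 146 lower) were recomputed under 22 alternatives. Taking the hybridization day as a random block left 214 calls, 124 higher and 90 lower. With the 12-month arrays of day 1 alone 73 were called, 51 higher and 22 lower, and with those of day 2 alone 150, 108 higher and 42 lower, with 2 arrays in place of 4. Leaving out 1 array gave 160 to 350 calls, 101 to 194 higher and 59 to 156 lower, the lowest without replicate 3 of 20 months and the highest without replicate 4. The other settings gave 230 to 368. The replicate block gave 305 calls. Same-numbered arrays of the 2 ages had correlations of deviations from the group means of 0.084, -0.0172, 0.0512 and 0.199. Each 20-month array correlated best with a 12-month array of another number (0.133, 0.0533, 0.255 and 0.262). Of the 12-month arrays, replicate 4 correlated best with its own number. The main fit did not pair the arrays. Of the 27 interactions, 17 were called with 16 added before log2, 16 without the filter, 4 with hybridization day as a random block, 10 with the fluidics module as a block, 5 and 6 with the 12-month SHR arrays of day 1 or 2 alone, and 4 to 35 on leaving out 1 array, and the replicate block gave 21. The causes were not tested. Of 111 named genes called changed, 31 stayed called under all 22 alternatives and 0 reversed. Of the 19 named interactions, only those of Thbs4, Ltbp2 and Myl4 stayed called under all 29 alternatives of that test. The calls of Ech1, Col5a2, Ctss, Ctsk, Pfkp and Eln were each lost under 19 to 22 of the 29. Dim genes have small log2 changes by construction, and the number of arrays limits what could be called.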
